A study of Mus musculus with 4 samples.

Results

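The 10 imprinted growth genes described here are H19, Igf2, Dlk1, Meg3, Rian, Mest, Peg3, Plagl1, Grb10 and Ndn. They were taken from the deposited count table by gene name, which gave 10 of 51826 genes. Their RNA was measured by sequencing in dermal papilla cells (DPCs), which lie as a mesenchymal cluster in the hair bulb, and in dermal sheath cells (DSCs), which wrap the follicle. Both were cultured from whisker (vibrissa) follicles of EGFP-transgenic C57BL/6J mice several weeks old, were labelled wild type (WT), and were kept in DMEM. Cells at passage 3 (low passage) and passage 9 (high passage) gave 4 libraries, 1 for each combination of cell type and passage, so that no difference has a replicate check. The study asked how serial passage alters these cells, which home to follicle niches when transplanted.

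An imprinted gene is transcribed mainly from the allele of 1 parent, according to DNA methylation set in the germ line. Paternally expressed genes as a class tend to promote growth of the embryo and maternally expressed genes to restrain it, and many form a network that is active in fetal tissue and is turned down after birth. By background knowledge Igf2, Dlk1, Mest, Peg3, Plagl1 and Ndn are expressed mainly from the paternal allele, and H19, Meg3, Rian and Grb10 mainly from the maternal allele in most tissues. The counts do not separate the parental alleles, so imprinting itself was not measured and each value is the sum over both alleles.

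Igf2 (chr7:142650766-142666816, minus strand of GRCm38) lies beside the noncoding H19 gene (chr7:142575529-142578143, minus strand). On chromosome 12, Dlk1 (chr12:109452823-109463336) is followed on the plus strand by the noncoding genes Meg3 (chr12:109541001-109571726) and Rian (chr12:109603940-109661716). The others stand apart, with Mest at chr6:30723547-30748465, Peg3 at chr7:6703892-6730431, Plagl1 at chr10:13060504-13131694, Grb10 at chr11:11930508-12038683 and the single-exon gene Ndn at chr7:62346569-62350262. All 10 positions in the deposited tables were identical to those of the GENCODE M21 annotation.

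Several members also carry microRNAs inside their transcripts. The sequences below are from RefSeq (GRCm38.p6) and are a selection. Their host RNAs differed at least 4-fold in a comparison (H19, Mest, Meg3) or neighbour one that did (Igf2). Not printed are mmu-miR-770-3p and mmu-miR-1906 of Meg3 and the 6 mature forms of Rian, which neighbours Meg3. Capitals mark the seed, bases 2 to 8, which pairs with target RNAs. The H19 microRNAs lie in an exon of the host, those of Meg3 in an exon, and those of Mest and Igf2 in introns. The mature microRNAs themselves were not measured by these libraries.
mmu-miR-675-5p (H19): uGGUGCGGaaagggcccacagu
mmu-miR-675-3p (H19): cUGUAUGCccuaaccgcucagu
mmu-miR-335-5p (Mest): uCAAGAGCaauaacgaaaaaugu
mmu-miR-335-3p (Mest): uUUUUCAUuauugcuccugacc
mmu-miR-483-5p (Igf2): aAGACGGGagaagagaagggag
mmu-miR-483-3p (Igf2): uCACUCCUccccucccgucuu
mmu-miR-770-5p (Meg3): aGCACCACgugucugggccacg
The seeds printed here all differ from each other. The 5p and 3p forms of one hairpin are therefore distinct regulators, although their host gene gives a single count in these tables.

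Imprinting is set by methylation of CpG dinucleotides at control regions, which lie at the start site of some imprinted genes, such as Mest and Peg3, and far from that of others, such as Igf2. The RefSeq promoter table had 16 windows of 300 bases for 9 members and none for H19. Of the member windows, 7, from 6 members, had an observed over expected CpG ratio of at least 0.6, against 35.8% of all 32851 windows. The 250 bases before a start site of Mest and of Peg3 are printed because both genes were at least 4-fold higher at passage 9 in DPCs, with each CpG in capitals.
Mest, chr6:30737803-30738052, plus strand: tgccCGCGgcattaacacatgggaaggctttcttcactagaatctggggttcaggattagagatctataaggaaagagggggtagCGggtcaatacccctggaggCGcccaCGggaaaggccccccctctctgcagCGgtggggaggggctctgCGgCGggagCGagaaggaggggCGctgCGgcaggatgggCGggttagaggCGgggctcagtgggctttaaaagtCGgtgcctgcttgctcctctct
Peg3, chr7:6730420-6730669, minus strand: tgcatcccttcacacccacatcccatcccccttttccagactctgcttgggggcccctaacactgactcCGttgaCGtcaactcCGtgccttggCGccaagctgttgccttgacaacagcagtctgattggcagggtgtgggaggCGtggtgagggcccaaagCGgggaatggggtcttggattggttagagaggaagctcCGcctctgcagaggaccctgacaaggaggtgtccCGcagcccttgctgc
The Mest stretch held 14 CpG and the Peg3 stretch 8. The CpG ratio over the whole window was 0.605 for Mest and 0.463 for Peg3. Methylation was not measured in these libraries.

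Library depth was between 34981284 and 47604059 counts, and 22230 to 23548 genes had a count. Levels are given as CPM (counts scaled to a common library total) with scaling by the trimmed mean of M-values (TMM), and a difference is a log2 ratio of these values after adding a prior count of 2. Intervals are exact 95% intervals for counting error only. A gene was called when it differed at least 4-fold, and 16734 genes, including all 10 members, passed a mean count of 10. Of the marker lists of other cells, 3 of 5 keratinocyte genes (Krt5, Krt14, Cdh1), 3 of 4 melanocyte genes (Tyr, Dct, Mlana) and 2 of 3 adipocyte genes (Adipoq, Plin1) had no counts. Their other members were low, with 33 to 61 counts of Krt10, 10 to 35 of Trp63, 17 to 47 of Pmel and 26 to 89 of Fabp4. Immune and Schwann cell genes were present at levels like those of the lower members, with 570 counts of Csf1r, 405 of Cd68 and 544 of Ngfr in DSCs at passage 3. The labels of the 2 cell types were not borne out by every marker. Of the papilla genes, Sox2 was higher in DPCs, with 1677 and 1491 counts at passages 3 and 9 against 269 and 178 in DSCs. Ncam1 was higher in DSCs, with 11755 and 15584 counts against 3642 and 1673. The study names its protein as a marker of both cell types, so Ncam1 does not set them apart. Alpl, Corin and Lepr had at most 23 counts in any library, and Lef1 had 508 and 2 counts in DPCs and 101 and 55 in DSCs. The papilla list of 7 genes summed to 271 and 185 CPM in DPCs and to 460 and 411 CPM in DSCs. Most of the DSC sum was Ncam1, at 310 and 342 CPM, against 99 and 46.6 CPM in DPCs. Vcan, also in the list, had 112 and 96 CPM in DPCs and 139 and 63.9 CPM in DSCs. All 5 sheath genes were lower in DSCs than in DPCs at passage 3. At passage 9, 4 of the 5 were higher in DSCs, with a median log2 difference of 1.25.

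**Figure D1:**
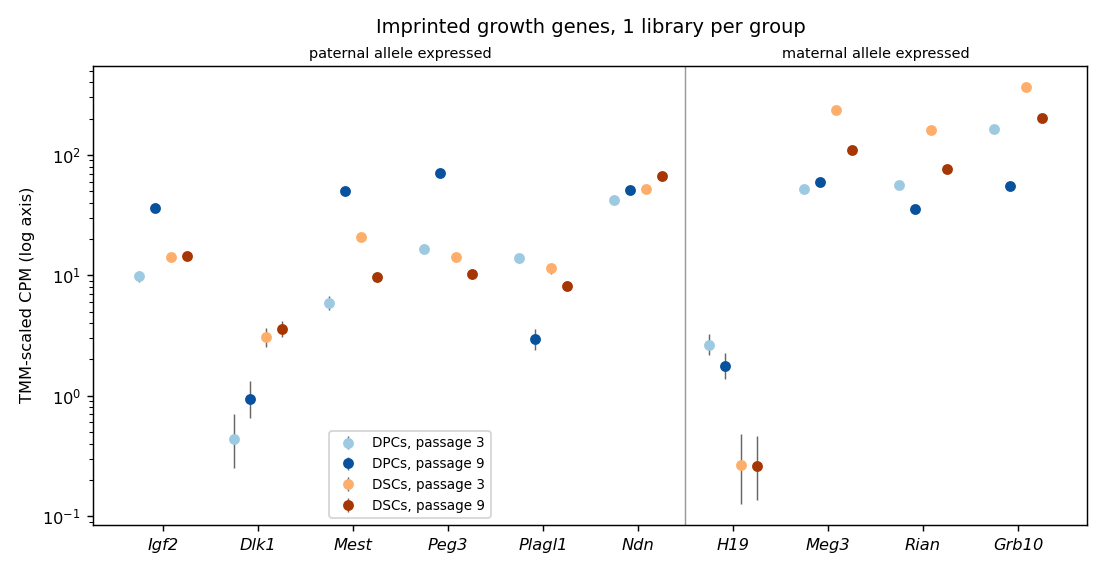
TMM-scaled CPM (log axis) of the 10 imprinted growth genes in each of the 4 libraries, as points with 95% counting intervals. Mest and Peg3 are highest in high-passage DPCs, at 50 and 71.4 CPM, and H19 lies below 0.3 CPM in both DSC libraries.

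The first comparison asked how the genes differed between passage 3 and passage 9 in DPCs. Mest and Peg3 were at least 4-fold higher at passage 9 and Plagl1 was at least 4-fold lower by counts. This was 2 members called higher and 1 called lower, beside 5.58% and 4.36% of all genes. In DSCs 0 members were called, beside 2.67% of all genes called higher and 1.16% called lower. The share called in both cell types and the same direction was 1.27% of genes for higher and 0.508% for lower, and 0 members were among them. The median log2 change of the members was 0.22 in DPCs and -0.47 in DSCs, beside medians of 0.03 and 0 over all genes.

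Mest encodes an alpha/beta-hydrolase-fold protein of mesoderm that is abundant in embryonic mesenchyme and in expanding fat. Its counts were 216 and 1793 in DPCs at passages 3 and 9, and 785 and 438 in DSCs. High-passage DPCs stood above the other 3 libraries and low-passage DPCs below them. With passage it was 8.45-fold higher in DPCs, a log2 change of 3.08 (95% interval 2.88 to 3.3), and its log2 change in DSCs was -1.1 (-1.28 to -0.94). Only 2.26% of all genes had a higher log2 change in DPCs. The exons of Mest share 912 bases, or 23.1% of its exonic bases, with Copg2 on the opposite strand, and the sources used here do not state whether counting used strand. Copg2 itself had 1557, 1467, 1639 and 2330 counts in the same order of libraries, which did not follow the order of Mest.

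Peg3 encodes a large zinc finger protein that binds DNA and acts in maternal care, cell survival and stem cell populations. Its counts were 614 and 2561 in DPCs at passages 3 and 9, and 533 and 465 in DSCs. The high-passage DPC library was above the other 3, which lay close together. The log2 change with passage was 2.09 (1.97 to 2.23) in DPCs, just inside the 4-fold threshold, and -0.46 (-0.64 to -0.28) in DSCs.

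Igf2 encodes insulin-like growth factor 2, a fetal growth factor that signals through the receptors Igf1r and Insr and is cleared by Igf2r. Its counts were 361 and 1305 in DPCs at passages 3 and 9, and 536 and 662 in DSCs. Again high-passage DPCs were the highest. The log2 change was 1.88 (1.72 to 2.06) in DPCs, just outside the 4-fold threshold, and 0.04 (-0.13 to 0.21) in DSCs. The antisense gene Igf2os had 61 counts in DPCs and 15 in DSCs at passage 9, and 0 in both passage 3 libraries. A coding gene on the same strand, Gm49394, covers 62.8% of the exonic bases of Igf2 and was not analysed here, and how reads from the shared part were counted is not stated.

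Plagl1 encodes a zinc finger transcription factor that slows proliferation and regulates other imprinted genes. Its counts were 510 and 106 in DPCs at passages 3 and 9, and 432 and 372 in DSCs. High-passage DPCs held the lowest count, and the other 3 libraries were near each other. By counts the log2 change in DPCs was -2.21 (-2.55 to -1.93). The deposited FPKM values, fragments scaled for transcript length and depth, gave 2.84 and 2.11 and a log2 change of only -0.43, so the 4-fold call for Plagl1 rested on the counts alone.

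Ndn encodes necdin, a protein of the MAGE family that restrains cell division in neurons and other postmitotic cells. It had 1563 and 1825 counts in DPCs and 1979 and 3053 in DSCs. Its levels spanned the narrowest range among the members, with log2 changes of 0.26 (0.16 to 0.36) in DPCs and 0.36 (0.28 to 0.44) in DSCs. Dlk1, a transmembrane protein that inhibits Notch signalling and adipocyte differentiation, had 16 and 34 counts in DPCs and 116 and 164 in DSCs. Both DSC libraries lay above both DPC libraries. Its log2 change was 1.04 (0.23 to 2.08) in DPCs and 0.23 (-0.12 to 0.59) in DSCs.

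**Figure D2:**
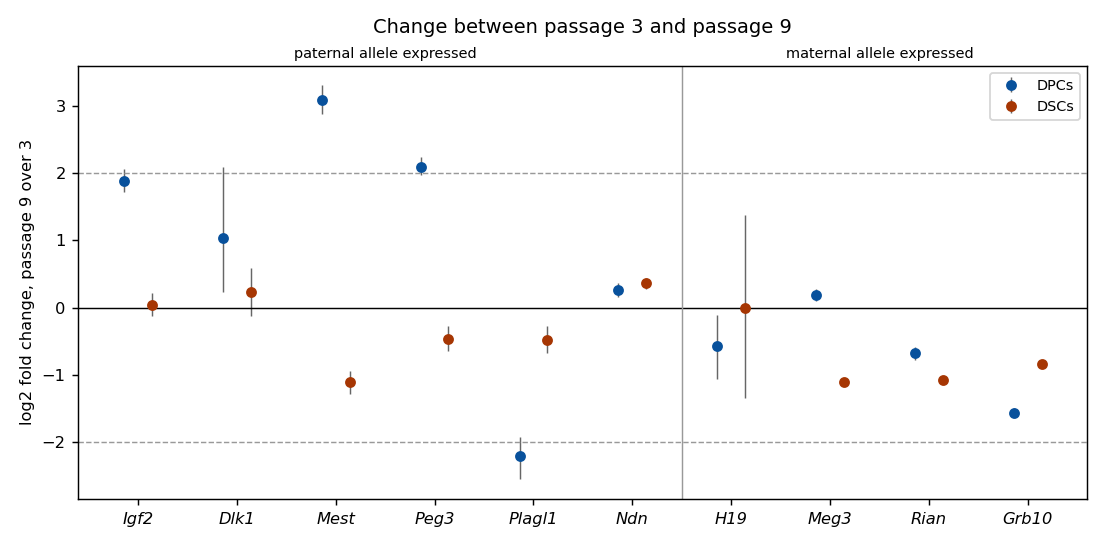
Log2 fold change of each member from passage 3 to passage 9 in DPCs and DSCs, with 95% counting intervals and dashed lines at 4-fold. Mest (3.08 and -1.1) and Peg3 (2.09 and -0.46) lie above 0 in DPCs and below 0 in DSCs, while Grb10, Rian and Plagl1 lie below 0 in both.

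Of the maternally expressed members, Grb10 and Rian were lower at passage 9 in both cell types. So was the paternally expressed Plagl1, at -2.21 in DPCs and -0.48 in DSCs by counts, and Mest and Peg3 were lower in DSCs. Grb10 encodes an adaptor that binds the insulin and IGF receptors and dampens their signal. Its counts were 6006 and 1988 in DPCs at passages 3 and 9 and 13810 and 9241 in DSCs. Both passage 9 libraries lay below the passage 3 library of the same cell type, with log2 changes of -1.56 (-1.63 to -1.49) in DPCs and -0.84 (-0.88 to -0.81) in DSCs. Rian, a noncoding RNA that hosts small nucleolar RNAs, showed the same order, with 2080 and 1269 counts in DPCs and 6111 and 3486 in DSCs. Its log2 changes were -0.68 (-0.78 to -0.58) and -1.07 (-1.14 to -1.01).

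Meg3, a noncoding RNA with growth-suppressing activity, had 1927 and 2123 counts in DPCs and 8924 and 4954 in DSCs. The DSC libraries were the higher pair at each passage. The log2 change was 0.18 (0.09 to 0.27) in DPCs and -1.11 (-1.16 to -1.06) in DSCs, but the FPKM values of 24.9 and 18.3 in DPCs gave -0.44, so the direction in DPCs depended on the measure. H19, the noncoding partner of Igf2, had 98 and 64 counts in DPCs and 10 and 12 in DSCs. Its log2 change in DPCs was -0.57 (-1.06 to -0.11), and no change was detectable in DSCs at this depth, with a log2 interval of -1.34 to 1.37.

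Counts of 2 and 4 were more frequent than counts of 3 in every library. Halving all counts, as if both mates of each read pair had been counted, widened the interval for H19 in DPCs to -1.27 to 0.09, which includes 0, and that for Dlk1 in DPCs to -0.17 to 2.54. The interval for Mest in DPCs was then 2.8 to 3.39 and that for Peg3 1.92 to 2.28.

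Only an additive fit, with terms for cell type and for passage, leaves a residual degree of freedom to test passage, and the difference between the cell types in their response then counts as error. In edgeR's quasi-likelihood test 0 members passed an adjusted p of 0.05, as did 0% of the 16734 genes, the smallest adjusted p being 0.0996. At the unadjusted level 16.9% of all genes and 2 members, Grb10 and Rian, were under 0.05. Their edgeR adjusted p-values were 0.209 for Grb10 (log2 change -1.2) and 0.225 for Rian (log2 change -0.88). DESeq2 called 6.06% of genes in the same design, and among the members Grb10 alone (DESeq2 adjusted p = 0.00864). Grb10 and Rian were lower with passage in both cell types. Mest and Peg3, with opposite directions, had DESeq2 adjusted p-values of 0.559 and 0.502.

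The second comparison set DSCs against DPCs. At passage 3, Dlk1 and Meg3 were at least 4-fold higher in DSCs and H19 at least 4-fold lower. At passage 9 no member was called higher in DSCs, and H19, Mest and Peg3 were called lower. Over all genes the shares were 2.77% higher and 1.52% lower at passage 3, and 3.91% higher and 2.5% lower at passage 9. The members' medians were 0.84 at passage 3 and 0.64 at passage 9.

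H19 was lower in DSCs at both passages. Its level was 2.66 CPM in DPCs and 0.264 CPM in DSCs, a log2 difference of -3.11 (-4.44 to -2.4). At passage 9 the difference was -2.54 (-3.79 to -1.86), and FPKM plus 1, which damps low values, gave -1.32 and -0.95. The neighbouring growth factor Igf2 did not share this order. Igf2 was higher in DSCs at passage 3, by a log2 difference of 0.52 (0.33 to 0.72), and lower at passage 9, by -1.32 (-1.46 to -1.19).

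In the chromosome 12 cluster the DSC libraries were higher for all 3 members at both passages. The log2 difference of Dlk1 was 2.68 (2.05 to 3.67) at passage 3 and 1.87 (1.39 to 2.5) at passage 9. Meg3 differed by 2.17 (2.1 to 2.24) and then by 0.88 (0.8 to 0.95). That of Rian was 1.51 (1.44 to 1.58) and 1.11 (1.02 to 1.21). The growth restrainer Grb10 was also higher in DSCs at both passages, by 1.16 (1.11 to 1.2) and 1.87 (1.8 to 1.94), as was Ndn by 0.3 (0.2 to 0.39) and 0.4 (0.31 to 0.48). The 4-fold call of Meg3 at passage 3 was absent by FPKM, where the log2 difference was 1.75.

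Mest was higher in DSCs at passage 3, by 1.81 (1.6 to 2.04), and lower at passage 9, by -2.37 (-2.53 to -2.23). Peg3 was slightly lower in DSCs at passage 3, by -0.25 (-0.42 to -0.08), and far lower at passage 9, by -2.8 (-2.95 to -2.66). Plagl1 went the other way by counts, from -0.28 (-0.47 to -0.09) to 1.45 (1.15 to 1.79), while the FPKM log2 difference at passage 9 was -0.18. Each of these shifts is the same quantity as the difference between the cell types in their passage change, since all use the same 4 libraries.

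**Figure D3:**
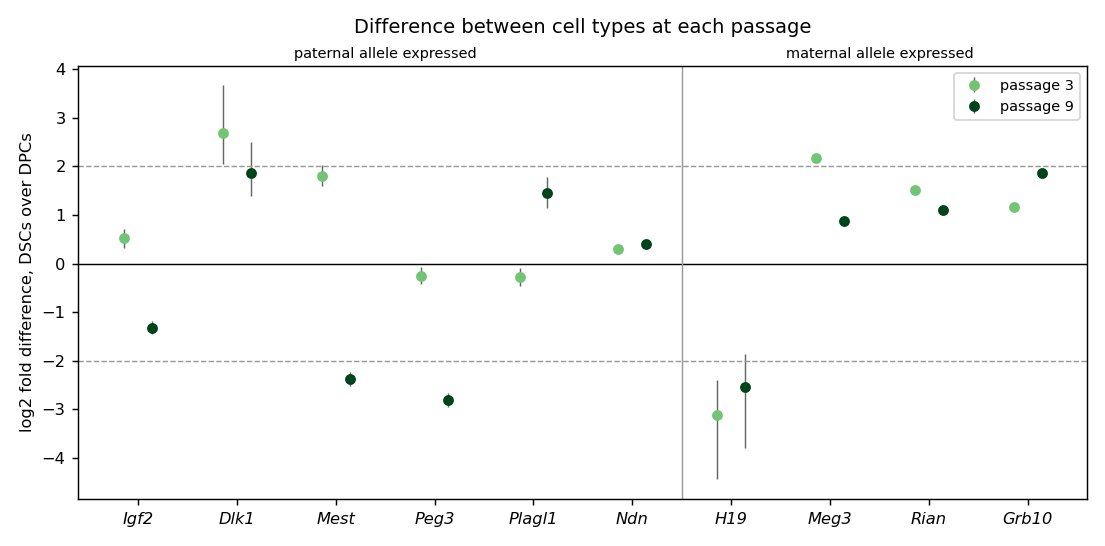
Log2 fold difference of DSCs over DPCs for each member at passage 3 and at passage 9, with 95% counting intervals and dashed lines at 4-fold. H19 is below -2 at both passages, and Mest moves from 1.81 to -2.37.

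Ratios of neighbouring genes within a library do not depend on scaling between libraries. There were 3.68 Igf2 counts per H19 count (95% interval 2.94 to 4.65) in DPCs at passage 3 and 20.4 (15.9 to 26.6) at passage 9. In DSCs the ratio was 53.6 (28.9 to 112) and 55.2 (31.4 to 107). The DSC ratios lay above both DPC ratios and their intervals overlapped each other. Meg3 counts per Rian count were 0.926 (0.87 to 0.986) in DPCs at passage 3 and 1.67 (1.56 to 1.79) at passage 9, and 1.46 (1.41 to 1.51) and 1.42 (1.36 to 1.48) in DSCs. Low-passage DPCs thus had relatively less Meg3 RNA than the other 3 libraries by counts.

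Within a library, the order of the members was compared by FPKM, since only a level per length allows genes to be compared. Rian was the highest member in all 4 libraries, at 38.7, 24.1, 87.3 and 43.1 FPKM for DPCs and then DSCs, each at passage 3 and then 9. In DSCs it was followed closely by Meg3, at 83.5 and 42.2 FPKM, and then by Grb10, at 64.2 and 35 FPKM. H19 or Dlk1 was the lowest in each library, between 0.0815 and 0.492 FPKM. The top place depended on the length used: by scaled counts per kilobase of all annotated exons Rian was first in 0 libraries, and Grb10 led in 3 and Ndn in 1, high-passage DPCs.

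Counts and FPKM gave like changes for some members and not for others. Dividing the counts by the FPKM and the depth gives the transcript length that the FPKM implies, which would be the same in every library if one length had been used. The highest over the lowest implied length was at most 1.2 for Rian, Mest, Peg3, Grb10 and Ndn. It was 3.53 for Plagl1, 3.1 for Dlk1, 2.59 for Igf2, 2.09 for H19 and 1.51 for Meg3, and the members differ in depth. Plagl1, Igf2 and Meg3 compare with a median of 1.06 and a 95th percentile of 1.44 over 10996 genes with at least 100 counts in each library. Dlk1 and H19 compare with a median of 1.04 and a 95th percentile of 1.9 over 3782 genes whose lowest count was at least 10 and under 100. For Igf2 the FPKM log2 change with passage was 3.19 in DPCs, which passes 4-fold, and 0.99 in DSCs, and for Dlk1 in DPCs it was 2.59. Mest and Peg3 were past 4-fold in DPCs by both measures, though with FPKM plus 1 Peg3 was at 1.69.

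**Figure D4:**
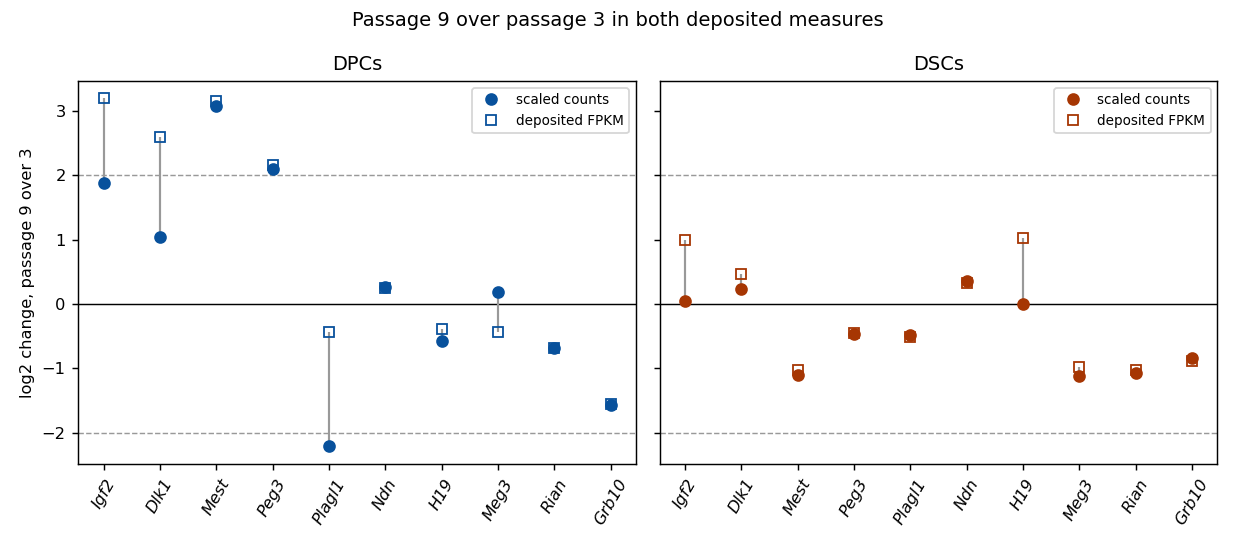
Log2 change from passage 3 to passage 9 by scaled counts (filled circles) and by deposited FPKM (open squares) for each member, in DPCs on the left and DSCs on the right, with dashed lines at 4-fold. The pairs for Mest, Peg3, Grb10, Rian and Ndn nearly coincide, whereas Plagl1 in DPCs is at -2.21 by counts and -0.43 by FPKM.

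The members were then set beside a list of other imprinted genes, of which 39 of 56 in the table were tested. In DPCs 3 were at least 4-fold higher and 2 lower at passage 9, beside 5.58% and 4.36% of all genes, and the median log2 change was 0.39. In DSCs 3 were higher and 1 lower, beside 2.67% and 1.16%, with a median of 0.15. Rasgrf1, a Ras exchange factor expressed from the paternal allele, had 0 counts at passage 3 in both cell types, and 298 in DPCs and 40 in DSCs at passage 9, at least 102-fold and 11.1-fold higher against a floor of 3 counts. Dcn, the matrix proteoglycan decorin, went from 3292 to 89544 counts in DSCs, a log2 change of 4.5 (4.45 to 4.55), and from 4285 to 5494 in DPCs. Cdkn1c, a cyclin-dependent kinase inhibitor and growth restrainer, was higher by 2.71 (1.96 to 4.14) in DSCs and 0.71 (0.4 to 1.03) in DPCs.

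Dio3, the thyroid hormone-inactivating enzyme at the far end of the Dlk1 cluster, had 34 and 2 counts in DPCs, a log2 change of -3.19 (-7.15 to -2.09), and 212 and 235 in DSCs. Zim1, a zinc finger gene beside Peg3, was lower in DSCs by a log2 change of -2.97 (-3.96 to -2.39), with 124 and 17 counts, and had 20 and 51 counts in DPCs. The remaining genes past 4-fold in DPCs, named after their values were seen, were Ppp1r9a (34 and 164 counts) and Mkrn3 (10 and 50) on the higher side and Slc22a18 (36 and 6) on the lower.

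**Figure D5:**
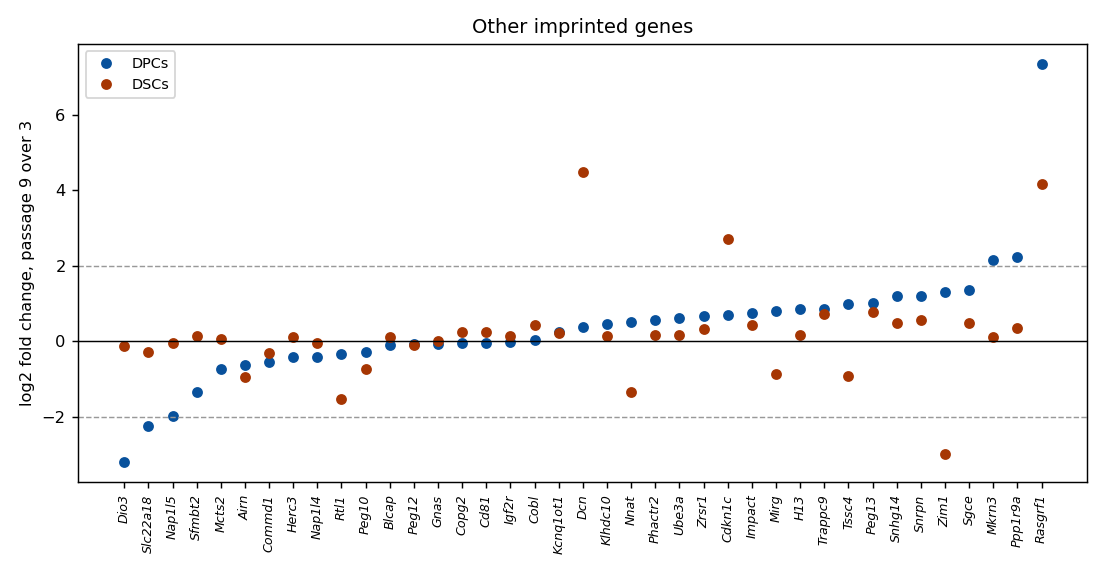
Log2 change from passage 3 to passage 9 of the other imprinted genes tested, in DPCs and DSCs, ordered by the change in DPCs, with dashed lines at 4-fold. Most lie within the lines in both cell types, and Rasgrf1 is past 4-fold in both.

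Genes around the IGF2 signal, its receptors, ligand relatives and RNA-binding proteins, were listed next. Of 9 tested, 0 were past 4-fold in DPCs and 1 in DSCs, beside 9.94% and 3.82% of all genes, with medians of -0.02 and 0.08. The gene past 4-fold was Igf1, a growth factor, with 2026 and 10055 counts in DSCs and 4790 and 3203 in DPCs. The receptor Igf2r, itself imprinted, had log2 changes of -0.02 in DPCs and 0.15 in DSCs, and Igf1r had -0.28 and 0.08. The RNA-binding proteins Igf2bp1, Igf2bp2 and Igf2bp3, which bind Igf2 mRNA, had log2 changes of -0.5, -1.17 and 0.8 in DPCs and of 1.67, -0.4 and 0.93 in DSCs. By FPKM, Igf2bp1 in DSCs was 0.748 and 1.04, a smaller rise than by counts.

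Among 13 genes of imprint maintenance and DNA methylation the medians were -0.15 in DPCs and -0.13 in DSCs. Past 4-fold were 1 in DPCs and 0 in DSCs, beside 9.94% and 3.82% of all genes. Uhrf1, which brings the maintenance methyltransferase to replicated DNA, was the only gene of this list past 4-fold, with 1427 and 217 counts in DPCs, a log2 change of -2.67 (-2.89 to -2.47), and -1.42 (-1.58 to -1.28) in DSCs. Dnmt1, that methyltransferase, was at -0.59 in DPCs and -0.45 in DSCs. Of the 9 Notch and adipogenic genes the medians were -0.39 and -0.6, and Hey1, a Notch target, had 85 and 6 counts in DPCs.

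Cell cycle genes differed with passage beside these results. The list held 6 genes of dividing cells (Mki67, Top2a, Ccnb1, Cdk1, Pcna and Mcm5) and the cell cycle inhibitors Cdkn1a and Cdkn2a, and its median log2 change was -1.44 in DPCs and -0.92 in DSCs. Without the inhibitors the medians were -2 and -1.28, and the summed level was 618 and 176 CPM in DPCs and 518 and 238 CPM in DSCs at passages 3 and 9. Mki67 had log2 changes of -1.84 and -1.28, and Ccnb1, Mcm5 and Top2a were past 4-fold lower in DPCs, beside 4.36% of all genes. Cdkn2a, which accumulates in senescent cells, was higher at passage 9 in both cell types. Its log2 change was 1.13 (1 to 1.26) for DPCs and 1.5 (1.4 to 1.61) for DSCs, while that of Cdkn1a was -0.32 and 0.09. Schwann cell markers summed to 6.77 and 2.67 CPM in DPCs and to 22.3 and 1.93 CPM in DSCs, with Sox10 and Ngfr at 0 in both high-passage libraries. Immune markers summed to 21.2 and 9.03 CPM in DPCs and 32.9 and 14 CPM in DSCs, and endothelial markers to 0.815 and 0.111 CPM and to 2.48 and 0.307 CPM. Acta2, the smooth muscle actin of the sheath, had 262118 and 67135 counts in DPCs and 217199 and 197315 in DSCs. Of the 5 sheath genes, 4 were lower with passage in DPCs, with a median of -1.69, and 3 were higher in DSCs, with a median of 0.99. Itga8 of that list had 6837 and 34714 counts in DPCs and 1674 and 23287 in DSCs. Mesenchyme markers summed to 10300 and 3250 CPM in DPCs and to 13700 and 11300 CPM in DSCs. Skeletal muscle markers summed to at most 0.285 CPM in any library. The part of these markers in the members' changes was not tested. In bulk samples, fewer cells of a type and less RNA per cell cannot be told apart, and passage cannot be told apart from any other difference between the libraries, since each group had 1.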

How the data were processed

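RNA was sequenced from 4 samples, DPCs and DSCs at passages 3 and 9, with 1 library each. The authors deposited raw counts per gene, and FPKM values that the authors normalized for length and depth. The submitters' notes name Bowtie 0.12.2 and the builds mm8 and mm9 with no role, whereas 51633 of 51826 deposited IDs were in GENCODE M21 (GRCm38), 94.2% of these at an identical position. The counter, its use of strand and the annotation were not given in the sources used here. The labels name a TruSeq kit and the study's methods another kit.

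Counts were scaled by TMM in edgeR 4.0.16 (R 4.3.3), with a prior count of 2, and genes with a mean count of at least 10 were kept. A 4-fold difference was called without a test, since each group had 1 library. Intervals were exact (Clopper-Pearson) and cover counting error only. The additive fit (cell type plus passage) used edgeR's quasi-likelihood test, with DESeq2 1.42.0 as an alternative, both with Benjamini-Hochberg adjustment. The scripts were tested on simulated data. The members and lists were chosen with earlier results of these data known. Named genes were all members and, in each list, at most 4 genes past 4-fold with passage whose higher library had at least 50 counts, plus Igf1r, Igf2r, Cdkn1c, Dnmt1, Mki67 and Igf2bp1 to Igf2bp3. Alternatives were other scalings, filters, prior counts, halved counts, the FPKM values and a 2-fold threshold.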

Additional observations from a re-analysis of the deposited data

Results flagged for a closer look

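For 5 members the sign of a contrast was opposite in the 2 groups compared. Each difference below is the log2 passage change in DSCs minus that in DPCs, and none was tested, since each group had 1 library. Mest was higher with passage in DPCs and lower in DSCs, and its order between the cell types also turned between passages 3 and 9, a difference of -4.18. Peg3 had opposite passage changes, a difference of -2.55. For Meg3 the difference was -1.29, and the sign in DPCs turned with FPKM. Igf2 was higher in DSCs at passage 3 and lower at passage 9, a difference of -1.85. Plagl1 was lower in DSCs at passage 3 and higher at passage 9 by counts, a difference of 1.73, which was not present by FPKM.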

How the results depend on the processing

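No paired analysis was possible because each group held 1 library and the columns carry no shared replicate number, and no library could be left out for the same reason. The 3 members called with passage in DPCs, 0 in DSCs, and 3 between the cell types at each passage were the same in number under DESeq2 size factors, upper-quartile scaling, total counts, no filter, a prior count of 0.5 and halved counts. A minimum mean count of 100 removed H19 and Dlk1 from the tested genes and left 1 call at passage 3 and 2 at passage 9, between the cell types. Of all genes then tested, 2.47% and 3.76% were called. A prior count of 10 left 2 at passage 9, without H19, beside 4.26% of all genes. With a 2-fold threshold 6 and 3 members were called with passage in DPCs and DSCs, beside 31.1% and 14.8% of all genes. Between the cell types 6 and 8 were called at passages 3 and 9, beside 13.3% and 20.1%. FPKM plus 0.1 called 3 members with passage in DPCs, Igf2, Mest and Peg3, without Plagl1, beside 7.05% of all genes. FPKM plus 1 called 2, Igf2 and Mest, beside 2.12%. Between the cell types at passage 3 these settings called 2 and 0, beside 2.34% and 0.574%. The FPKM ratio without a pseudocount, added after seeing the data, called 4 in DPCs, Igf2, Dlk1, Mest and Peg3, beside 11.9%. DESeq2 called 1 member in the additive fit, Grb10, and edgeR 0. The median of the other imprinted genes in DPCs was 0.15 and 0.04 with the 2 FPKM pseudocounts. Without Cdkn1a and Cdkn2a, a choice made after seeing the data, the medians of the cell cycle list were -2 in DPCs and -1.28 in DSCs. Rian led in 0 libraries per kilobase of all exons. Of 40 member changes, 37 kept their sign under each FPKM setting. The cause of these differences was not tested. Depth limits H19 in DSCs and Dlk1 in DPCs, with 10 to 34 counts.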
